A study of Drosophila melanogaster with 6 samples.

Results

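The tubulin isotype family of Drosophila melanogaster was followed in eye-antennal imaginal discs. In the larva these discs are the primordia of eye, antenna and head capsule. The 10 members of the family were the rows of the deposited count table whose symbol was one of 4 alpha-tubulin genes (alphaTub84B, alphaTub84D, alphaTub85E and alphaTub67C), 4 beta-tubulin genes (betaTub56D, betaTub60D, betaTub85D and betaTub97EF) or 2 gamma-tubulin genes (gammaTub23C and gammaTub37C), out of 16727 rows in all. The discs came from larvae of genotype y w; +/+; +/+, reared at 25 °C on food made from the yeast strain YPH erg2∆::TRP1, which lacks the precursors of the moulting hormone, so that the larvae did not pupate. The food was shared by all samples and also held sucrose, agar, Nipagin and penicillin. One group was dissected 11 days after egg laying, when the discs had stopped growing at their proper size, and the other 5 days after egg laying, while they were still growing. Each day had 3 libraries, each from at least 30 discs, made from polyadenylated RNA with a 3′ tag kit. The comparison of day 11 with day 5 asks which transcripts differ between a disc that has completed growth and one that grows. Age, time on this food and the end of growth cannot be told apart in this design.

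Alpha- and beta-tubulin pair into the dimers from which microtubules are built, and gamma-tubulin, in ring complexes, starts new microtubules. Flies carry several genes for each class. Some are active in nearly all cells and serve the mitotic spindle and the interphase array, while others are known from the germline, from muscle precursors or from sensory neurons. In the eye disc microtubules serve dividing cells, the movement of nuclei, and the axons that photoreceptors send to the brain.

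Depth was 7670180 to 9049513 counts per library for day 11 and 6542782 to 7950251 for day 5. Levels are given as CPM, counts divided by the TMM-scaled size of the library, in which 3 counts in a library, taken as the limit that a count of 0 allows, stand for 0.321 to 0.461 CPM. This limit covers counting error only. A transcript gives tags near its 3′ end whatever its length, so CPM were compared between genes without division by length; whether tag yield differs between genes was not tested. All 9 genes of a short list of eye and antenna regulators (ey, toy, so, eya, dac, gl, Dll, hth and lz) were detected on both days. Their summed level was 1988 to 2578 CPM at day 11 and 2472 to 2553 CPM at day 5, with 3 of the 9 lower at day 11 and 0 higher. Summed markers of other cells were 288.1 to 302.8 CPM at day 11 and 308.4 to 373.9 CPM at day 5 for glia, 441.1 to 559.8 and 370.1 to 450.9 CPM for neuroblasts, 117.2 to 301.2 and 80.7 to 112.6 CPM for haemocytes, 784.3 to 1032 and 530.5 to 601.7 CPM for trachea, and 80.7 to 948.0 and 68.2 to 658.8 CPM for fat body, in the same order of days. Called members of these lists were 3 higher and 1 lower of 9 tested for glia and 2 and 0 of 5 for neuroblasts. They were 2 and 0 of 7 for haemocytes, 1 and 0 of 3 for trachea, and 0 and 0 of 5 for fat body. In that order the shares called were 44.4%, 40%, 28.6%, 33.3% and 0%. For the eye and antenna regulators the share called was 33.3%, all of it lower. Of their 9 fold changes 8 were negative, with a median log2 fold change of -0.37. Over all genes tested 37% were called, 19.1% higher and 17.9% lower, by the test given below. The largest parts of the glial sum were nrv2 and Gs2, with log2 fold changes of -0.29 and -0.07, not called. Of the 9 tested glial genes 5 had positive and 4 negative fold changes. Called higher were moody (0.56), wrapper (2.04) and Tret1-1 (0.85), and called lower was Gli (-0.84). The lower glial sum at day 11 was thus not shared by all its genes, and the part of glia was not tested. Most of the neuroblast sum was grh, at 395.4 to 497.1 CPM at day 11 and 347.1 to 415.2 CPM at day 5, not called. In that list ase and wor lay at 0 to 0.963 CPM and were not tested. Of its 5 tested genes 4 had positive fold changes, while dpn had a log2 fold change of -0.59, not called. Exons of grh and dpn overlap those of genes on the other strand by up to 1237 and 1207 bases. The short RNAs CR40469 and CR34335 accounted for 35.6% ± 8.03 of the reads counted at day 11, against 16.6% ± 2.29 for day 5 (SD over 3 libraries). Day 11 replicate 1, with 26.3%, was the lowest of its day. Whether libraries of 1 day stem from different cultures is not labelled. The p-values therefore reflect the spread among these libraries, which may be technical in part.

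The more abundant alpha-tubulin genes, alphaTub84B and alphaTub84D, fell at day 11, and the other tubulin genes that could be tested were not called. Of the 10 members, 9 had a count in some library and 7 passed the low-count filter and were tested. Among those 7, 2 were lower at day 11 (alphaTub84D and alphaTub84B), 0 were higher and 5 were not called by the edgeR quasi-likelihood test at a Benjamini-Hochberg adjusted p below 0.05. Among all 8010 genes tested 37% were called, 17.9% lower and 19.1% higher, by the same rule. Read against these shares, 2 calls among 7 do not set the family apart from other genes. At an unadjusted p below 0.05, 3 members were lower and 0 higher, and both DESeq2 and limma-voom called 3 lower and 0 higher. The fold changes of 6 of the 7 tested members were negative, with a median log2 fold change of -0.37, against -0.01 over all genes tested. CPM did not overlap between the days for 4071 of the 8010 genes, or 50.8%, and for 4 of the 7 tested members, all of them lower at day 11.

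The members lie at separate loci, and none overlaps another annotated gene on either strand, so that reads of an overlapping or antisense gene do not enter their counts by position. The sources used here do not give the handling of multiply matching reads. This matters most for alphaTub84B and alphaTub84D, whose proteins are nearly identical. In coordinates of assembly release 6, which dm6 names, alphaTub84B lies on the plus strand of chromosome 3R from 7086599 to 7088839, with 2 exons, and alphaTub84D on the same strand from 7530753 to 7532732, in 1 exon.

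Levels in the family ran from among the most abundant transcripts of the disc to 0. betaTub56D and alphaTub84B were the most abundant members, at ranks 73 and 107 of all genes in the table at day 11 and at ranks 83 and 95 at day 5. betaTub60D and alphaTub84D came next, and their libraries were apart at day 11 but overlapped at day 5. gammaTub23C, betaTub97EF, alphaTub85E and alphaTub67C followed in that order, each apart from its neighbour on both days. At day 5, however, the lowest gammaTub23C value (41.2 CPM) and the highest betaTub97EF value (41.1 CPM) were nearly equal. gammaTub37C, which overlapped alphaTub67C at day 5, and betaTub85D were at or near 0.

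**Figure D1:**
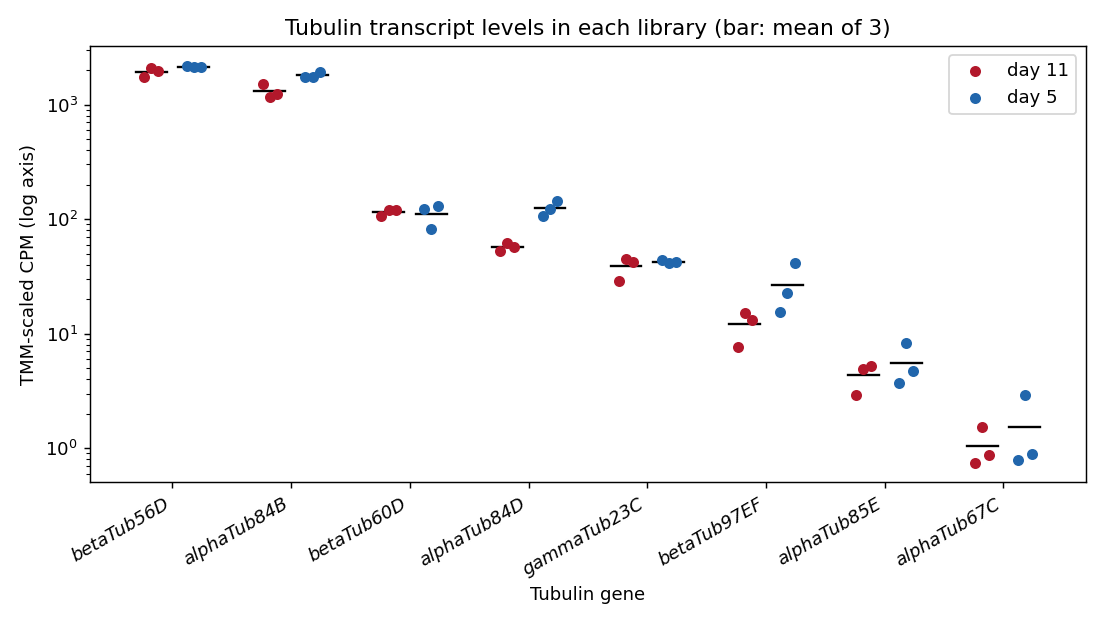
TMM-scaled CPM on a log axis for the 8 tubulin genes with counts in every library, with day 11 (red) left of day 5 (blue), 1 point per library and a bar at the mean of 3. The genes run from betaTub56D near 2000 CPM to alphaTub67C near 1 CPM, and the red points of alphaTub84B and alphaTub84D all lie below the blue ones.

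alphaTub84B encodes the main alpha-tubulin of most fly cells and is often used as a reference transcript. It had 1513, 1169 and 1229 CPM in day 11 replicates 1 to 3, against 1759, 1729 and 1931 CPM in day 5 replicates 1 to 3. All day 11 libraries were below all day 5 libraries, and day 11 replicate 1 was the nearest to them. The means were 1304 ± 183.6 CPM at day 11 and 1807 ± 109.0 CPM for day 5 (SD, n = 3 each). The log2 fold change was -0.47 (SE 0.13, 95% interval -0.74 to -0.20, edgeR adjusted p = 0.0117). The call was lost without day 11 replicate 3 (adjusted p = 0.0673) and without day 5 replicate 3 (adjusted p = 0.0512), with log2 fold changes of -0.42 in both.

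alphaTub84D encodes an alpha-tubulin that differs from that of alphaTub84B at only a few residues and is, like it, widely expressed. It had 52.7, 61.5 and 57.6 CPM in day 11 replicates 1 to 3, against 106.8, 121.7 and 144.0 CPM in day 5 replicates 1 to 3. The days were well apart, and at day 5 the libraries spread more widely than at day 11. Its log2 fold change was -1.12 (SE 0.15, 95% interval -1.44 to -0.80, edgeR adjusted p = 0.00018), so that its level at day 11 was 0.461 times that at day 5. It was called in each of 17 other settings, with log2 fold changes from -1.40 to -1.001. The rank of alphaTub84D among all genes of the table was 1772 at day 11 and 800 at day 5.

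alphaTub85E, on the minus strand of chromosome 3R from 9731221 to 9733250, is known from chordotonal sense organs, muscle attachment cells and the testis. It had 2.89, 4.92 and 5.23 CPM in day 11 replicates 1 to 3 and 3.70, 8.31 and 4.68 CPM in day 5 replicates 1 to 3. The days overlapped, and the highest value was that of day 5 replicate 2. Its log2 fold change was -0.37 (95% interval -1.22 to 0.48, edgeR adjusted p = 0.481), and 0.03 without day 5 replicate 2. Of 18 listed chordotonal organ markers 15 had a count, while the channel genes nan and iav and the regulator fd3F were at 0 in all libraries. The summed level of the list was 72.3 to 73.9 CPM at day 11 and 82.8 to 88.4 CPM at day 5. The largest part was Tektin-C, at 34.9 to 46.4 CPM at day 11 and 51.8 to 54.0 CPM at day 5. Of 6 tested 1 rose, eys, and 2 fell, Tektin-C and unc, or 50% called, against 37% of all genes. The means of eys and unc were only 3.21 and 1.08 CPM. nompC, not tested, had 16, 7 and 7 counts in day 11 replicates 1 to 3 and 1, 0 and 0 in day 5 replicates 1 to 3. Day 5 replicate 2 was also the library with the highest summed level of 20 muscle and myoblast markers, 1318 CPM, against 640.7 to 746.4 CPM in the other day 5 libraries and 586.7 to 712.7 CPM at day 11. The part of either cell type in the alphaTub85E values was not tested.

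alphaTub67C encodes the maternal alpha-tubulin of the ovary and early embryo. It had 7, 10 and 6 counts in day 11 replicates 1 to 3 and 6, 24 and 7 counts in day 5 replicates 1 to 3, and did not pass the low-count filter. These counts amount to 0.749 to 1.54 CPM at day 11 and 0.794 to 2.89 CPM at day 5, above the limit that a count of 0 allows, and the days overlap. Of 14 female germline markers 9 had a count, and osk, bcd, swa, BicC and Vm26Aa were at 0 in every library. Only grk and exu passed the filter and neither was called (edgeR; 0 also at an unadjusted p below 0.05). The summed level of the list was 27.5 to 44.6 CPM at day 11 and 23.9 to 40.6 CPM at day 5. Most of it came from exu and grk.

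betaTub56D encodes the main beta-tubulin of dividing and most other cells. It lies on the minus strand of chromosome 2R from 19447319 to 19451600, with 2 annotated transcripts. It had 1735, 2073 and 1967 CPM in day 11 replicates 1 to 3, against 2183, 2129 and 2110 CPM in day 5 replicates 1 to 3. The day 11 libraries were all below the day 5 libraries, but the second of them by little. Its log2 fold change was -0.15 (SE 0.11, 95% interval -0.39 to 0.09) and was not called (edgeR adjusted p = 0.300). Its coefficient of variation was 8.98% at day 11 and 1.77% at day 5, the smallest of the family at day 5. Scaling by total counts alone gave a log2 fold change of -0.44, which was called (adjusted p = 0.0327).

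betaTub60D encodes a beta-tubulin known from mesoderm and muscle precursors, from sense organs and from later stages of disc development, and one that answers to moulting hormone in cultured fly cells. Its locus is on the plus strand of chromosome 2R from 24305881 to 24313099. It had 106.8, 120.2 and 119.2 CPM in day 11 replicates 1 to 3 and 123.5, 81.7 and 129.0 CPM in day 5 replicates 1 to 3. The day 11 values lay within the range of the day 5 values, of which that of replicate 2 was low. The log2 fold change was 0.05 (95% interval -0.32 to 0.42, edgeR adjusted p = 0.839). Its sign was not stable. It was -0.24 with total counts, -0.02 with the transcript length trend removed and -0.14 without day 5 replicate 2. That low library is the one with the highest summed level of muscle and myoblast markers. Of those 20 markers, all tested, 14 had negative fold changes, with a median log2 fold change of -0.77. By the adjusted test 3 rose and 2 fell, and at an unadjusted p below 0.05 there were 3 higher and 5 lower. The share called by the adjusted test was 25%, below the 37% of all genes, so the list does not stand apart by its calls. The risers were the myoblast genes Mef2 (log2 fold change 0.91), stumps (1.51) and Him (2.75), and the fallers the muscle structural genes Mhc (-1.65) and Mp20 (-1.32). The part of muscle or its precursors in the betaTub60D level was not tested.

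betaTub97EF encodes a beta-tubulin that has been found to increase in the cold and to stabilise microtubules. Its locus, 21377 bp long on the minus strand of chromosome 3R from 27967008 to 27988384, is the longest of the family. It had 7.70, 15.2 and 13.2 CPM in day 11 replicates 1 to 3, against 15.3, 22.5 and 41.1 CPM in day 5 replicates 1 to 3. The days did not overlap, but the highest day 11 value and the lowest day 5 value were nearly equal. Its log2 fold change of -1.14 was close to that of alphaTub84D, but with an SE of 0.40 in place of 0.15. Its 95% interval, which is not adjusted for the number of genes, was -2.08 to -0.20, and its edgeR adjusted p was 0.0604. It was called in 6 of 17 other settings, among them the DESeq2 Wald test (adjusted p = 0.00519), limma-voom (adjusted p = 0.0435), total counts (adjusted p = 0.00611) and the fit without day 5 replicate 1 (adjusted p = 0.0159). Without day 5 replicate 3 the log2 fold change was -0.67 (adjusted p = 0.130), and over all settings adjusted p ran from 0.00519 to 0.195.

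betaTub85D encodes the beta-tubulin of the male germline. It had 0 counts in all 6 libraries, which allows a level of up to 0.321 to 0.461 CPM per library. Of 24 male germline and testis markers 18 had a count in some library, while aly, sa, nht, bam, Mst84Da and nos were at 0 in every one. The summed level of the list was 61.5 to 80.1 CPM at day 11 and 68.5 to 72.99 CPM at day 5. Its largest part was CycB3, at 25.5 to 40.8 CPM at day 11 and 34.5 to 38.8 CPM at day 5. Of the 18, only mia, achi, CycB3 and twe passed the low-count filter, and none of these was called (edgeR quasi-likelihood test; 0 also at an unadjusted p below 0.05). Day 11 replicate 3 stood apart in late testis transcripts. It had 34 counts of dj, 15 of Mst87F, 8 of Mst35Bb and 7 of Mst84Db, against 0 to 6 counts of each in the other libraries, and betaTub85D was at 0 there too.

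gammaTub23C encodes the gamma-tubulin of somatic cells. It lies on the plus strand of chromosome 2L from 2972891 to 2974858. It had 29.0, 44.6 and 42.4 CPM in day 11 replicates 1 to 3 and 44.3, 41.2 and 41.9 CPM in day 5 replicates 1 to 3. Only day 11 replicate 1 stood below the rest. The log2 fold change was -0.14 (95% interval -0.51 to 0.24, edgeR adjusted p = 0.557), and 0.04 without that library. The maternal gene gammaTub37C had 0, 1 and 2 counts in day 11 replicates 1 to 3 and 9, 0 and 0 counts in day 5 replicates 1 to 3. With all but 1 of these at or under 3 counts, no fold change is given for it.

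**Figure D2:**
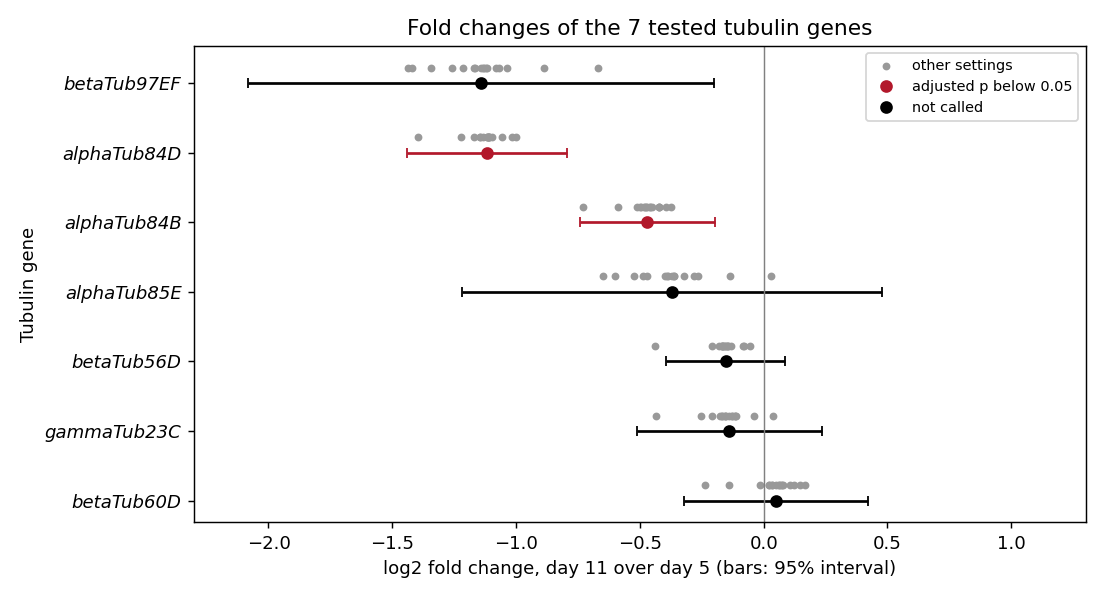
Log2 fold changes of the 7 tested tubulin genes, day 11 over day 5, with 95% intervals from the edgeR fit and, in grey, the values under the other settings. alphaTub84D and alphaTub84B (red) were called, betaTub97EF had a similar value to alphaTub84D with a wider interval, and betaTub60D lay near 0.

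The choice of scaling moved these values, and the share of counts taken by the short RNAs differed between the days. Total counts alone moved the log2 fold changes, at their median over genes, by -0.27 relative to TMM and called 4 members lower, betaTub56D and betaTub97EF besides the alpha genes. It called 865 of all genes higher and 2207 lower, so that rises were 28.2% of calls in place of 51.7%. Total counts without the pair of short RNAs moved them by 0.10 and called 1838 higher and 1139 lower, or 61.7% higher. In that scaling alphaTub84B (-0.37) and alphaTub84D (-1.02) were still called and no other member was.

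Within the alpha class the share of alphaTub84D was lower in every day 11 library than in any day 5 library. alphaTub84D made up 3.36%, 4.97% and 4.45% of the alpha-tubulin counts in day 11 replicates 1 to 3, against 5.71%, 6.53% and 6.92% in day 5 replicates 1 to 3. These shares did not overlap, and they do not depend on library scaling. The mean share was 4.26% ± 0.825 at day 11 and 6.39% ± 0.618 in day 5 discs (SD, n = 3 each). The log2 ratio of alphaTub84D to alphaTub84B was -4.50 ± 0.307 at day 11 and -3.87 ± 0.153 at day 5, a difference of -0.63. The exact permutation test over libraries, two-sided, gave p = 0.1 for the share and for the ratio, the smallest p that 3 against 3 libraries allow; adjusted over 9 shares it was 0.45 and over 5 ratios 0.5. alphaTub84B accounted for 95.3% ± 0.979 of alpha counts at day 11 and 93.2% ± 0.700 at day 5.

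Within the beta class no share separated the days. betaTub56D made up 93.8% ± 0.0891 of beta-tubulin counts at day 11 and 94.0% ± 1.40 in day 5 discs (SD, n = 3 each). The share of betaTub60D was 5.63% ± 0.170 at day 11 and 4.88% ± 1.07 at day 5, and that of betaTub97EF was 0.579% ± 0.143 at day 11 and 1.16% ± 0.585 at day 5. The days overlapped for all of these. Exact permutation p was 0.7 for the betaTub56D share (1 when adjusted over 9 shares), and 0.2 for those of betaTub60D and betaTub97EF (both 0.45 when adjusted).

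**Figure D3:**
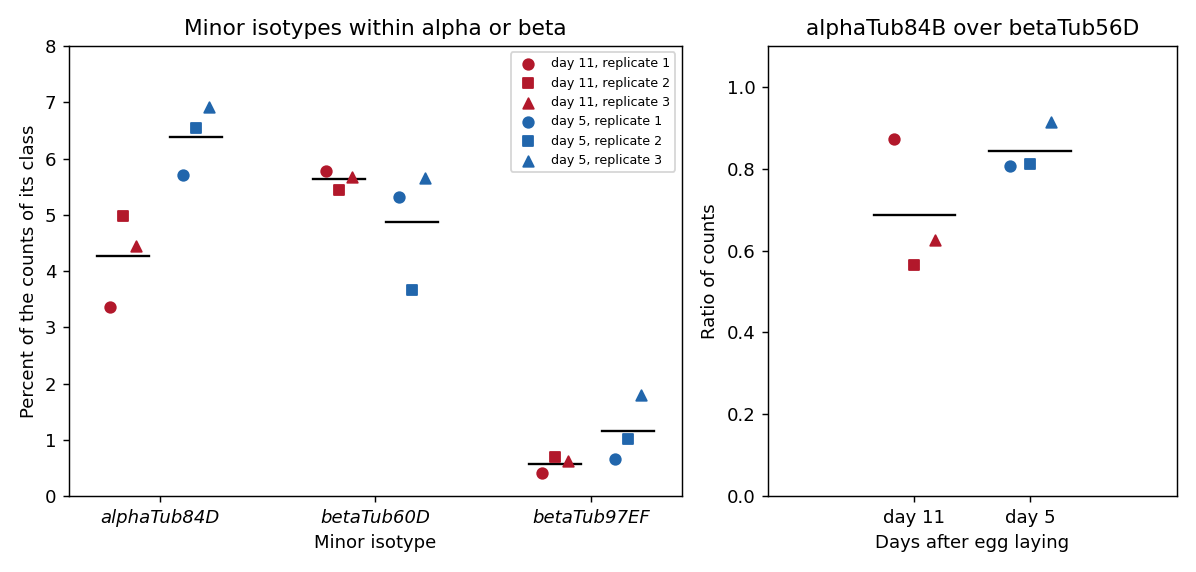
Left, the percent of alpha-tubulin counts from alphaTub84D and of beta-tubulin counts from betaTub60D and betaTub97EF in each library; right, the ratio of alphaTub84B to betaTub56D counts; day 11 is red and left, day 5 blue, symbols give the replicate and bars the mean of 3. The alphaTub84D shares of the days do not overlap, and in the right panel day 11 replicate 1 lies at 0.872 while the other day 11 libraries lie at 0.564 and 0.625.

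The summed alpha-tubulin level was 1366 ± 177.8 CPM at day 11 and 1938 ± 123.9 CPM at day 5, and the summed beta-tubulin level 2053 ± 184.1 CPM at day 11 and 2278 ± 44.2 CPM for day 5 (SD, n = 3 each). Neither sum overlapped between the days (exact permutation p = 0.1, the smallest possible, and 0.3 adjusted over 9 sums and ratios). Alpha and beta members together made up 0.311% ± 0.0362 of a day 11 library and 0.464% ± 0.0319 of a day 5 library. Of the counts without the pair of short RNAs they made up 0.483% ± 0.00887 at day 11 and 0.556% ± 0.0250 at day 5, a difference of -0.07 in place of -0.15 percentage points. The alphaTub84B to betaTub56D ratio of counts was 0.872, 0.564 and 0.625 in day 11 replicates 1 to 3, against 0.806, 0.812 and 0.915 in day 5 replicates 1 to 3. Day 11 replicate 1 lay among the day 5 libraries, so that the days overlapped (exact permutation p = 0.3, adjusted 0.45). The test therefore did not separate the change of alphaTub84B from that of betaTub56D, with smallest possible p of 0.1.

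Day 11 replicate 1 stood apart in several members. It had the highest alphaTub84B and the lowest betaTub56D, betaTub60D, betaTub97EF, gammaTub23C and alphaTub84D of its day. The summed level of 12 neuronal markers was 1218, 696.5 and 775.4 CPM in day 11 replicates 1 to 3, and 411.2 to 510.2 CPM at day 5. All 12 were tested, of which 7 rose and 0 fell at day 11 (0 fell also at an unadjusted p below 0.05). The share higher was 58.3%, against 19.1% of all genes, and the share lower 0%, against 17.9%. elav, the pan-neuronal RNA-binding protein gene, was at 241.1 CPM in day 11 replicate 1 and at 133.4 and 151.3 CPM in the other day 11 libraries, against 168.4 to 181.3 CPM at day 5, and was not called. The exons of elav overlap those of 2 other genes, 1 of them on the same strand, by up to 2994 bases, so its counts are uncertain. The part of neurons in the tubulin levels was not tested. In bulk tissue fewer cells of a type and less RNA per cell cannot be told apart. Without day 11 replicate 1 the log2 fold change of alphaTub84B was -0.59 (edgeR adjusted p = 0.00036), that of betaTub56D was -0.08 and that of betaTub97EF was -0.89 (adjusted p = 0.195).

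The genes most like alphaTub84D over the 6 libraries were Ns3, CG1542, Tom7 and CoVIII. Likeness was the root mean square difference of log2 CPM profiles, each centred on its own mean, over 3744 genes whose mean reached 20 CPM. It was 0.0325 for Ns3, 0.0480 for CG1542, 0.0641 for Tom7 and 0.0702 for CoVIII. Ns3 stood at 13.2 ± 1.32 CPM at day 11 and 28.2 ± 3.93 CPM at day 5, and Tom7 at 144.6 ± 14.3 CPM at day 11 and 325.4 ± 71.1 CPM in day 5 discs (SD, n = 3 each). This is a description of profiles over few libraries, which mainly share the difference between the days.

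A pair of further tubulin genes in the table, not among the members, was barely detected. CG7794, an alpha-tubulin gene by annotation, had 0, 9 and 0 counts in day 11 replicates 1 to 3 and 1, 1 and 2 counts in day 5 replicates 1 to 3. CG32396, now named betaTub65B, had 2, 0 and 6 counts in day 11 replicates 1 to 3 and 1, 4 and 4 counts in day 5 replicates 1 to 3.

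The chaperonin CCT, a ring of 8 different subunits, folds newly made tubulin and actin. All 8 subunit genes were tested, of which 5 fell and 0 rose (0 rose also at an unadjusted p below 0.05 and by DESeq2 and limma-voom), with a median log2 fold change of -0.41. The share lower was 62.5%, against 17.9% of all genes. Tcp-1eta was at 88.2 ± 8.75 CPM at day 11 and 143.3 ± 18.5 CPM in day 5 discs (SD, n = 3 each; log2 fold change -0.70, edgeR adjusted p = 0.00265). CG8258 had a log2 fold change of -0.76, Cct5 of -0.95 and CG5525 of -0.45. Without day 5 replicate 2 the number of CCT genes called was 3, and CG5525 had an adjusted p of 0.0919. Of the 5 folding cofactor genes, which assemble the alpha-beta dimer after CCT, 1 fell and 1 rose, or 40% called, near the 37% of all genes. The cofactor A gene CG1890, whose product holds beta-tubulin, was at 20.3, 32.7 and 29.1 CPM in day 11 replicates 1 to 3 and 49.9, 59.0 and 52.0 CPM in day 5 replicates 1 to 3 (log2 fold change -0.98, edgeR adjusted p = 0.00152). The cofactor C gene CG31961 was at 16.9 ± 4.39 CPM at day 11 and 8.89 ± 1.08 CPM at day 5 (log2 fold change 0.93, adjusted p = 0.00896), a call lost under total counts (adjusted p = 0.0674).

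Of 18 genes of the gamma-tubulin ring complex, the augmin complex and the centrosome, which start microtubules, 16 were tested, 3 fell and 1 rose, with a median log2 fold change of -0.32. The share called was 25%, below the 37% of all genes, and the share lower was 18.8%, near the 17.9% of all genes. All 3 fallers encode augmin subunits, a subgroup picked out after the calls were seen, with no share computed for it. Besides wac the fallers were dgt4 (log2 fold change -2.31) and dgt6 (-1.44), with means of only 2.33 and 2.47 CPM. The other listed augmin genes were negative too but not called. They were dgt5 (log2 fold change -0.95, edgeR adjusted p = 0.0535), dgt3 (-0.38) and dgt2 (-0.33). dgt4 shares up to 130 exon bases with genes on the other strand. wac, which encodes an augmin subunit, was at 3.21, 9.53 and 8.87 CPM in day 11 replicates 1 to 3 and 20.1, 32.9 and 25.2 CPM in day 5 replicates 1 to 3. The days were apart, and the log2 fold change was -1.88 (SE 0.37, edgeR adjusted p = 0.00424). Grip91, which encodes a core subunit of the gamma-tubulin complex, had a log2 fold change of 0.48 (adjusted p = 0.0367). It lost that call in 10 of the 17 other settings, including without each single library other than day 11 replicate 1, where adjusted p was 0.0702 to 0.119. Total counts called 7 of the list lower and 0 higher, and requiring 5 CPM or more in 3 libraries left 1 lower.

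Of 15 listed genes of enzymes that modify tubulin after assembly, 13 had a count and 9 were tested, with 2 higher and 2 lower. That is 44.4% called, near the 37% of all genes. CG1550, the gene of the tubulin tyrosine ligase-like protein TTLL12, was at 23.1 ± 4.17 CPM at day 11 and 11.5 ± 0.510 CPM in day 5 discs (SD, n = 3 each; log2 fold change 1.00, edgeR adjusted p = 0.00186). CG3964, the gene of TTLL4B, was at 4.45 ± 1.11 CPM at day 11 and 11.5 ± 1.07 CPM at day 5 (log2 fold change -1.38, adjusted p = 0.00218). HDAC6, whose product removes acetyl groups from alpha-tubulin, had a log2 fold change of 0.54 (adjusted p = 0.0183), and CG16833, the gene of TTLL4A, had -0.65 (adjusted p = 0.0314). Each of these weaker calls was lost in 5 of 17 other settings. For HDAC6 adjusted p was 0.0509 to 0.0804 without day 11 replicate 2, day 5 replicate 1 or day 5 replicate 2, and for CG16833 it was 0.0570 to 0.121 without replicate 1 or 3 of either day. HDAC6 shares 1106 exon bases with a gene on the other strand, so its counts are uncertain.

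Of 22 microtubule-associated protein genes, all tested, 4 rose and 2 fell, with a median log2 fold change of 0.19. The share called was 27.3%, below the 37% of all genes. The largest rise was that of DCX-EMAP (log2 fold change 3.18, edgeR adjusted p = 9.0e-05), at a mean of only 4.73 CPM. It was not followed singly over the other settings. tau, which encodes an axonal microtubule-binding protein, was at 43.9, 18.1 and 32.4 CPM in day 11 replicates 1 to 3 and 9.79, 4.34 and 12.3 CPM in day 5 replicates 1 to 3. The days did not overlap (log2 fold change 1.85, SE 0.45, edgeR adjusted p = 0.0175), but the call was lost with no count filter (adjusted p = 0.0885). The neuronal markers summed above were higher at day 11 too, and their part in the tau level was not tested. asp, which encodes a spindle pole protein, had a log2 fold change of -0.80 (adjusted p = 0.00374). The spindle genes mars and feo had log2 fold changes of 0.50 (adjusted p = 0.0314) and 0.36 (adjusted p = 0.0338), each lost in 6 of 17 other settings. Adjusted p was 0.0616 to 0.154 for mars without day 11 replicate 2, day 5 replicate 1 or day 5 replicate 2, and 0.0822 to 0.152 for feo without day 11 replicate 3, day 5 replicate 1 or day 5 replicate 2. mars shares 578 exon bases with a gene on the other strand. Among 9 severing and depolymerising genes 6 were tested, 1 fell (16.7%, near the 17.9% of all genes) and 0 rose (0 rose also at an unadjusted p below 0.05 and by DESeq2 and limma-voom). It was CG3326, the fidgetin gene, at 3.56 ± 0.860 CPM at day 11 and 11.9 ± 2.52 CPM at day 5 (log2 fold change -1.74, adjusted p = 0.0008), which shares 625 exon bases with a gene on the other strand.

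Of 18 kinesin genes tested 2 fell and 2 rose, which is 22.2% called, below the 37% of all genes. cmet, which encodes a kinetochore kinesin, was at 16.2 ± 2.6 CPM at day 11 and 32.5 ± 3.54 CPM at day 5, and pav, which encodes a kinesin of cell division, at 23.8 ± 4.37 CPM at day 11 and 42.9 ± 2.45 CPM in day 5 discs (SD, n = 3 each; edgeR adjusted p = 0.00111 and 0.00194). unc-104, which encodes a carrier of synaptic vesicle precursors, and Klp98A, which encodes a carrier of endosomes, had log2 fold changes of 0.64 (adjusted p = 0.0218) and 0.47 (adjusted p = 0.0375). Their calls were lost in 6 and 7 of 17 other settings, with adjusted p of 0.0513 to 0.0990 for unc-104 without replicate 1 of either day, day 11 replicate 3 or day 5 replicate 2, and of 0.0628 to 0.138 for Klp98A without day 11 replicates 1 or 3 or day 5 replicates 2 or 3. Of 14 cytoplasmic dynein and dynactin genes tested 5 fell and 2 rose, or 35.7% lower and 14.3% higher against 17.9% and 19.1% of all genes, with a median log2 fold change of -0.47. The light chain genes ctp and Dlc90F had log2 fold changes of -0.86 and -0.91, nudC had -0.66, and the dynein regulator gene nudE had 1.098 (adjusted p = 0.00023). With the transcript length trend removed, or without day 5 replicate 1 or 2, 3 members of this list fell. Of the genes named from these lists, ctp, dgt2, nudE, tau and unc-104 share exon bases with a gene on the same strand. Grip91, CG16833, Cct5, wac, cmet and Tcp-1eta share them with 1 on the other strand, over 10 to 269 bases, and the counts of all of these are uncertain to that extent.

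**Figure D4:**
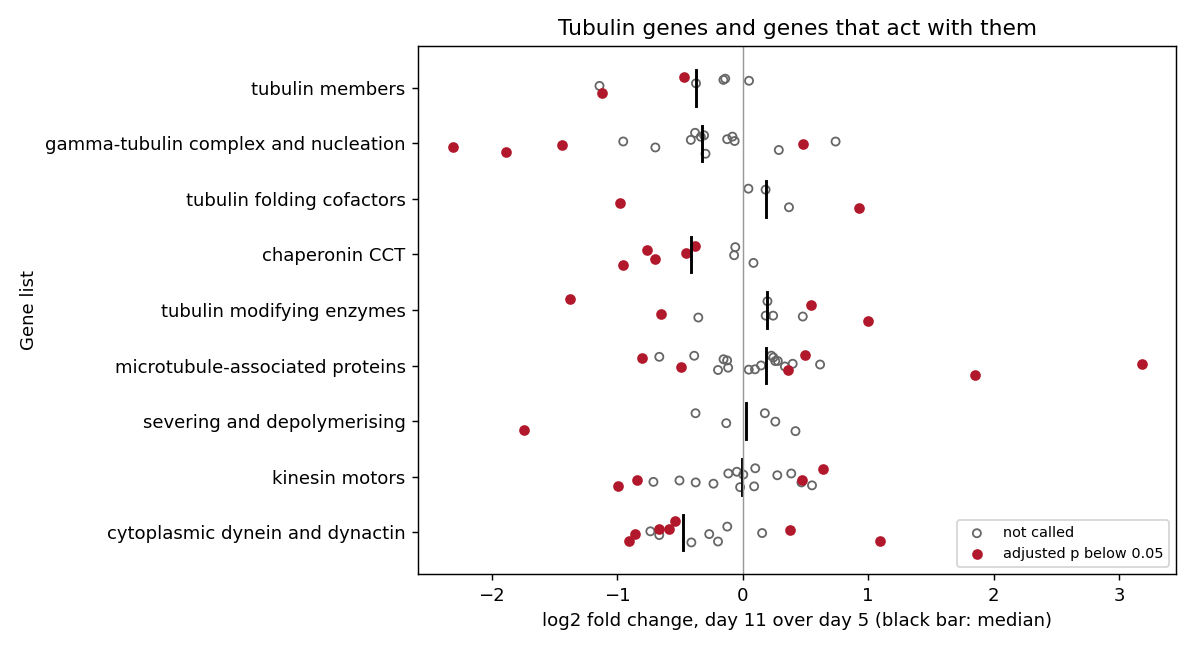
Log2 fold changes, day 11 over day 5, of the tested tubulin genes and of 8 lists of genes that act with them, 1 point per gene, red where adjusted p was below 0.05, with a black bar at each median. The chaperonin CCT genes lie at or left of 0 apart from 1 just above it, and the other lists hold points on both sides.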

How the data were processed

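The deposited table held read counts per gene, raw and not normalized, for 6 libraries of polyadenylated RNA made with the QuantSeq 3′ forward kit, per the labels' protocols. Per the submitters' processing notes, FastQC, cutadapt and STAR 2.6.1d were used with dm6. The sources used here do not say which program counted the reads, nor its strand option or rule for multiply matching reads. In each library 6542782 to 9049513 counts were summed over 16727 rows. Day 11 was compared with day 5, taken from the labels, with 3 libraries each.

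After the filterByExpr filter and TMM scaling, all 8010 remaining genes were tested with the edgeR 4.0.16 quasi-likelihood test with robust shrinkage (R 4.3.3), and p-values were adjusted by Benjamini-Hochberg with a threshold of 0.05. Intervals are 95%. Alternatives used limma 3.58.1, DESeq2 1.42.0, other scalings and filters, a length correction, fits with the replicate number as a block, and fits leaving out single libraries. Isotype shares and ratios were compared by exact permutation over libraries. The scripts were tested on simulated data.

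The members and lists were chosen with earlier results of these data known. The list of eye and antenna regulators was added after the table had been read. The text names the members, 2 further tubulin genes, and the 4 genes of at least 20 CPM most like alphaTub84D. It also names up to 4 called genes per list by adjusted p, with a mean of at least 5 CPM. Marker genes are named after their values were seen, and so are DCX-EMAP, dgt4 and dgt6, with means under 5 CPM. The same holds for dgt2, dgt3 and dgt5, which were not called. Symbols were matched to the annotation directly for 12512 rows and through RefSeq synonyms for 3996, and 219 were unmatched. Loci are from the Ensembl annotation of the same assembly. No sequence is printed.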

Additional observations from a re-analysis of the deposited data

How the results depend on the processing

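The fall of alphaTub84D held in all 17 other settings. The number of members called lower was 4 with total counts and 1 to 3 with a library left out, and no setting called a member higher. Over all genes, total counts gave 865 higher and 2207 lower calls, and leaving out a library gave 1187 to 1568 higher and 1015 to 1440 lower. Signs turned for alphaTub85E without day 5 replicate 2 (log2 fold change 0.0288; lowest without a library -0.600) and for gammaTub23C without day 11 replicate 1 (0.0377; lowest -0.252). They also turned for betaTub60D with total counts (-0.239), with the length trend removed (-0.0162) and without day 5 replicate 2 (-0.140; highest 0.167 without day 5 replicate 3); the cause was not tested. Samples with the same replicate number deviated together little (correlations of 0.05, 0.194 and -0.086 for replicates 1 to 3). The value of replicate 2 was the highest of all pairs, but not every library correlated best with its own number. The replicate block called 3 members lower, adding betaTub97EF (log2 fold change -1.07, SE 0.23 in place of 0.40), with 1518 higher and 1422 lower calls over all genes. Left-out libraries gave differences in share of -2.48 to -1.68 percentage points for alphaTub84D. With 3 libraries a day, exact tests cannot go below 0.1, and alphaTub67C, near 1 CPM, was under the low-count filter.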
